A study of Mus musculus with 8 samples.

Results

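Inhbb, Tgfb3, Bmp7, Fst and Tgfbr3 are 5 of the 14883 genes measured in single cells of the pubertal mouse mammary gland. They encode 3 ligands, an antagonist and a co-receptor of the TGF-beta superfamily. They were chosen by name, with their levels in these cells already known, because they differed between classes of epithelial cells. Their levels by class are therefore a description and carry no test. Secretory cells held most of the ligand transcripts Inhbb and Tgfb3, basal cells held nearly all of the ligand Bmp7 and the co-receptor Tgfbr3, and the antagonist Fst lay in basal and hormone-sensing cells.

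The study took micro-dissected ducts and terminal end buds, at which the ducts grow, from mice aged 5 weeks, sorted live cells into wells, and profiled each well by SORT-seq, which runs CEL-seq2 on a robot. In this assay each transcript molecule is marked by a short random tag at its 3' end, so values are estimated numbers of transcripts. The labels name 8 libraries of 96 wells, 4 on plate 2 and 4 on plate 1, and give the strain of all of them as mixed. They state no treatment or genotype contrast. Since they tie no library to ducts, to end buds or to an animal, p-values below reflect differences among libraries that may be purely technical.

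TGF-beta ligands are secreted as pairs of subunits and held latent in the matrix, and activins and bone morphogenetic proteins (BMPs) belong to the same family. All bind pairs of type I and type II receptor kinases, which phosphorylate SMAD proteins that enter the nucleus. Antagonists such as follistatin trap ligands outside the cell, and co-receptors such as betaglycan present them to the kinases. In the mammary gland TGF-beta signalling is known as a brake on ductal growth.

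Of 768 wells, 114 held at least 1500 transcripts and at least 500 genes and were kept as cells. A cell was called basal where the smooth muscle genes Acta2, Tagln and Myl9 together exceeded the keratins Krt8, Krt18 and Krt19, and luminal where the keratins were higher. Luminal cells were called hormone-sensing, the estrogen- and progesterone-responsive lineage, where the prolactin receptor Prlr exceeded transferrin, Trf, and secretory, the milk-forming lineage, otherwise. This gave 66 basal cells with a median of 13450.5 transcripts, 14 hormone-sensing cells with a median of 17924, and 28 secretory cells with a median of 7102.5. A further 6 cells held none of the 6 genes that separate basal from luminal and stayed unclassed. The classes were checked on other markers. The 9 basal markers, among them Krt5 and Krt14, summed to 40.6 of 10000 transcripts in basal cells, 0.118 in hormone-sensing cells and 0.640 in secretory cells. The 8 measured hormone-sensing markers summed to 1.63, 70.5 and 3.47 of 10000 in the same order of classes, and the 11 measured secretory markers to 14.8, 4.12 and 240.3.

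Library totals over all wells ranged from 182290 to 598625 transcripts on plate 2 and from 101158 to 220249 on plate 1. Basal cells came almost wholly from libraries 2 and 4 of each plate and luminal cells from libraries 1 and 3, and in that contrast the effects of class and of library cannot be told apart. Plate 1 also held 15 cells with more transcripts of another cell type's markers than of all epithelial markers together. Of these, 8 were classed basal, 1 secretory and 6 were unclassed. In the 4 basal library sums the 10 endothelial markers came to 0.0852 and 0.0853 of 10000 in plate 2 libraries 2 and 4, to 43.4 in plate 1 library 2 and to 9.17 in plate 1 library 4. Levels below are transcripts of a gene per 10000 transcripts of all genes, summed over the cells of a class in a library that has at least 3 of them. Intervals are exact 95% intervals and cover counting error only.

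Inhbb encodes the beta-B subunit, which forms activin B as a pair and inhibin B with the alpha subunit. It was highest in secretory cells, intermediate in hormone-sensing cells and lowest in basal cells. Secretory cells gave 72.3% of all Inhbb transcripts in kept cells while giving 16.7% of all RNA counted. In basal cells Inhbb stood at 0.136 and 0.142 of 10000 in plate 2 libraries 2 and 4, and at 0 and 0.579 in plate 1 libraries 2 and 4. In hormone-sensing cells it stood at 2.54 and 1.40 in plate 2 libraries 1 and 3, and at 1.68 in plate 1 library 3. In secretory cells it stood at 4.85 and 7.89 in plate 2 libraries 1 and 3, and at 5.89 and 9.94 in plate 1 libraries 1 and 3. The library values of the 3 classes did not overlap. The means were 0.214 ± 0.252 in basal (SD, n = 4), 1.87 ± 0.590 in hormone-sensing (SD, n = 3) and 7.14 ± 2.25 in secretory libraries (SD, n = 4). Pooled, Inhbb was 26.0-fold lower in basal than in luminal cells (interval 16.5 to 43.2) and 3.85-fold lower in hormone-sensing than in secretory cells (interval 2.92 to 5.14).

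Inhbb was found in 12 of 66 basal, 12 of 14 hormone-sensing and 27 of 28 secretory cells. Deeper cells show more genes, so detection was also computed as if each cell had 1500 transcripts, which gave 2.66%, 25.8% and 69.4% of cells in the same order. The 12 basal cells with Inhbb held 1 transcript each at the median and had a median depth of 24999.5, against 12407.5 in basal cells without it. The partners that decide which hormone the subunit forms were scarce: the alpha subunit gene Inha gave 7, 0 and 3 transcripts in basal, hormone-sensing and secretory cells, and the beta-A subunit gene Inhba gave 3, 6 and 1.

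Inhbb lies on the minus strand of chromosome 1 from 119415465 to 119422248 (GRCm38, GENCODE M21) and is protein coding. Its promoter is shown as sequence context for the ligand found in nearly all secretory cells, read 5′ to 3′ from RefSeq on GRCm38.p6 at chr1:119422199-119422498, minus strand, from 250 bases before the start to 50 after it. Capitals mark the match to GGGCGG, the GC box bound by Sp1-type factors, which reads CCGCCC on this strand.
Inhbb promoter: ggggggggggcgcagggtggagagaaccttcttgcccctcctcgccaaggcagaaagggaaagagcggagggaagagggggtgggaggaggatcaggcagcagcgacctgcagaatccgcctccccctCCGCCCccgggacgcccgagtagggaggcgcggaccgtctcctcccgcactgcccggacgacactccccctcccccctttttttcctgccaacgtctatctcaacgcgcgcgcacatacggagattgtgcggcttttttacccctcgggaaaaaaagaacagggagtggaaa
The window is 64.3% G or C. Searched on both strands, it held 1 match to GGGCGG, which 35.7% of 32851 mouse promoters of this length hold, and no match to TATAAA, the TATA box, which 13.6% hold. It held no match to the SMAD motifs CAGAC and GGCGCC, which 49.6% and 11.9% of promoters hold. These matches describe the letters of this window alone.

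Tgfb3 encodes the ligand TGF-beta 3 and lies on the minus strand of chromosome 12 from 86056745 to 86079041. Like Inhbb it was highest in secretory cells, which gave 69.3% of its transcripts, but basal and hormone-sensing cells were closer together. In basal cells it stood at 0.562 and 0.5684 of 10000 in plate 2 libraries 2 and 4, and at 0.143 and 0.483 in plate 1 libraries 2 and 4. In hormone-sensing cells it stood at 0.274 and 0.255 in plate 2 libraries 1 and 3, and at 0 in plate 1 library 3. In secretory cells it stood at 2.42 and 3.59 in plate 2 libraries 1 and 3, and at 5.26 and 7.02 in plate 1 libraries 1 and 3. Secretory libraries lay above every library of the other classes, whereas basal libraries (0.439 ± 0.201, SD, n = 4) and hormone-sensing libraries (0.176 ± 0.153, SD, n = 3) overlapped. The lowest secretory value rests on 3 cells and 3 transcripts. Pooled, Tgfb3 was 9.42-fold lower in basal than in secretory cells (interval 6.92 to 12.97) and 27.9-fold lower in hormone-sensing than in secretory cells (interval 12.5 to 77.1). It was found in 27 of 66 basal, 5 of 14 hormone-sensing and 22 of 28 secretory cells, and at 1500 transcripts a cell in 7.15%, 3.54% and 44.0%.

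The other TGF-beta ligand measured, Tgfb2, gave 14 transcripts in basal, 0 in hormone-sensing and 24 in secretory cells. Tgfb1, the remaining TGF-beta ligand gene, was not among the genes measured. Within secretory cells Inhbb and Tgfb3 were found together in 22 of 28 cells, and all cells with Tgfb3 also had Inhbb. These 22 cells had a median of 9722 transcripts, against 2608.5 in the 6 cells without Tgfb3, so detection of the pair moved with depth. The part of depth in this pairing was not tested.

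Bmp7 encodes a BMP ligand and lies on the minus strand of chromosome 2 from 172868012 to 172940321. Its transcripts were nearly confined to basal cells, with 192 in basal, 0 in hormone-sensing and 1 in secretory cells. In basal cells it stood at 1.96 and 1.36 of 10000 in plate 2 libraries 2 and 4, and at 1.14 and 1.64 in plate 1 libraries 2 and 4 (mean 1.53 ± 0.354, SD, n = 4). Of the secretory libraries, plate 1 library 1 held the 1 transcript, at 0.105, and the other 3 held none. Pooled, Bmp7 was 108.5-fold higher in basal than in luminal cells, with an interval of 19.2 to 4309 that the 1 luminal transcript makes wide. Against the hormone-sensing cells, which allow 3 transcripts in 337608, it was at least 19.2-fold higher. A transcript was found in 41 of 66 basal cells, 0 of 14 hormone-sensing cells and 1 of 28 secretory cells. The 0 allows a share of up to 21.4% of cells with a transcript, taking 3 counts as the limit, and does not limit the share that expresses the gene. At 1500 transcripts a cell the basal share was 17.2%. The 5 other BMP ligand genes measured, Bmp2, Bmp4, Bmp8a, Bmp8b and Bmp15, each gave under 10 transcripts over all 3 classes.

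Fst encodes follistatin, a secreted protein that binds activins and blocks their access to receptors. It lies on the minus strand of chromosome 13 from 114452290 to 114458951. Basal cells gave 49.2% of its transcripts, hormone-sensing cells 50% and secretory cells 0.518%. In basal cells it stood at 2.25 and 1.22 of 10000 in plate 2 libraries 2 and 4, and at 0.999 and 0.676 in plate 1 libraries 2 and 4. In hormone-sensing cells it stood at 8.84 and 0.128 in plate 2 libraries 1 and 3, and at 5.68 in plate 1 library 3. In secretory cells it stood at 0.808 and 0 in plate 2 libraries 1 and 3, and at 0 and 0.133 in plate 1 libraries 1 and 3, on 2 transcripts in all. The hormone-sensing libraries thus overlapped both other classes. Their mean was 4.88 ± 4.41 (SD, n = 3), and the basal mean of 1.29 ± 0.680 (SD, n = 4) lay within 1 SD of it. The difference was not tested. Pooled, Fst was 84.9-fold higher in hormone-sensing than in secretory cells (interval 23.2 to 706) and 25.1-fold higher in basal than in secretory cells (interval 6.86 to 209).

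The hormone-sensing level rested on few cells. Of 193 Fst transcripts in 14 hormone-sensing cells, 3 cells held 74, 57 and 52, or 94.8%, and the other 11 cells held from 0 to 4. The 3 cells came from plate 2 library 1 (74 and 52) and plate 1 library 3 (57), and had 15538, 45590 and 57903 transcripts in the order 74, 52 and 57. In the same order they held 17, 32 and 21 transcripts of the progesterone receptor Pgr and 34, 59 and 83 of the growth factor Areg, hormone-sensing markers that the class rule did not use. Of Esr1 and Wnt4, other markers of that set, they held 0, 2 and 2 and 1, 5 and 9 transcripts. These counts are not scaled to depth. The class as a whole stood at 10.2 of 10000 for Pgr, 17.9 for Areg, 0.592 for Esr1 and 3.35 for Wnt4. Scaled to depth, the 3 cells lay below the class for Esr1 and Wnt4. For Pgr and Areg the cell with 74 Fst transcripts lay above it, and those with 52 and 57 lay below. Single-cell counts of the other markers of the set are not given here. Other hormone-sensing cells of like depth held few: cells of 44963, 36794 and 45559 transcripts had 4, 1 and 0 Fst transcripts. In basal cells the 3 highest cells held 38.4% of 190 transcripts, and 38 of 66 cells held at least 1. Fst was found in 9 of 14 hormone-sensing and 2 of 28 secretory cells, and at 1500 transcripts a cell in 19.6% of basal, 26.0% of hormone-sensing and 2.16% of secretory cells. Of the 14 hormone-sensing cells, 8 held both Fst and Inhbb, and of the 66 basal cells, 7 did.

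Tgfbr3 encodes betaglycan, a membrane proteoglycan that presents TGF-beta to its type II receptor and also binds inhibin. It lies on the minus strand of chromosome 5 from 107106570 to 107289629. Basal cells gave 95.7% of its transcripts. In basal cells it stood at 3.66 and 3.64 of 10000 in plate 2 libraries 2 and 4, and at 6.71 and 3.28 in plate 1 libraries 2 and 4. All 3 hormone-sensing libraries held 0, and secretory libraries held 0 and 0.0877 on plate 2 (libraries 1 and 3) and 0.210 and 0.530 on plate 1 (libraries 1 and 3). Basal libraries lay above every luminal library, at 4.32 ± 1.60 in basal (SD, n = 4) and 0.207 ± 0.232 in secretory libraries (SD, n = 4). Pooled, Tgfbr3 was 34.2-fold higher in basal than in luminal cells (interval 16.5 to 85.7), and at least 42.5-fold higher than in hormone-sensing cells, whose 0 transcripts were set at 3. It was found in 56 of 66 basal, 0 of 14 hormone-sensing and 5 of 28 secretory cells, and at 1500 transcripts a cell in 40.1%, 0% and 4.64%. The hormone-sensing cells, at a median of 17924 transcripts, were the deepest of the classes.

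Tgfbr3 was the member with most transcripts in cells that other markers led. The 15 such cells held 47 Tgfbr3 transcripts, or 6.43 of 10000, beside 6 of Fst, 4 of Bmp7, 1 of Inhbb and 0 of Tgfb3. A basal-classed cell of plate 1 library 2 led by nerve or Schwann markers held 31 of them, and an unclassed cell led by fibroblast markers held 9. The 6 basal-classed cells led by endothelial markers held 4 together. Without cells led by other markers, the basal level was 3.66 and 3.64 of 10000 in plate 2 libraries 2 and 4. In plate 1 libraries 2 and 4 it was 3.01 and 3.45, so plate 1 library 2 no longer stood apart. That value rests on 3 cells and 12 Tgfbr3 transcripts in 39838. Of these cells, 1 gave 29724 of the transcripts and held 1 of Tgfbr3. Pooled over the 58 basal cells left, Tgfbr3 was 32.4-fold higher than in the luminal cells left (interval 15.6 to 81.1).

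**Figure D1:**
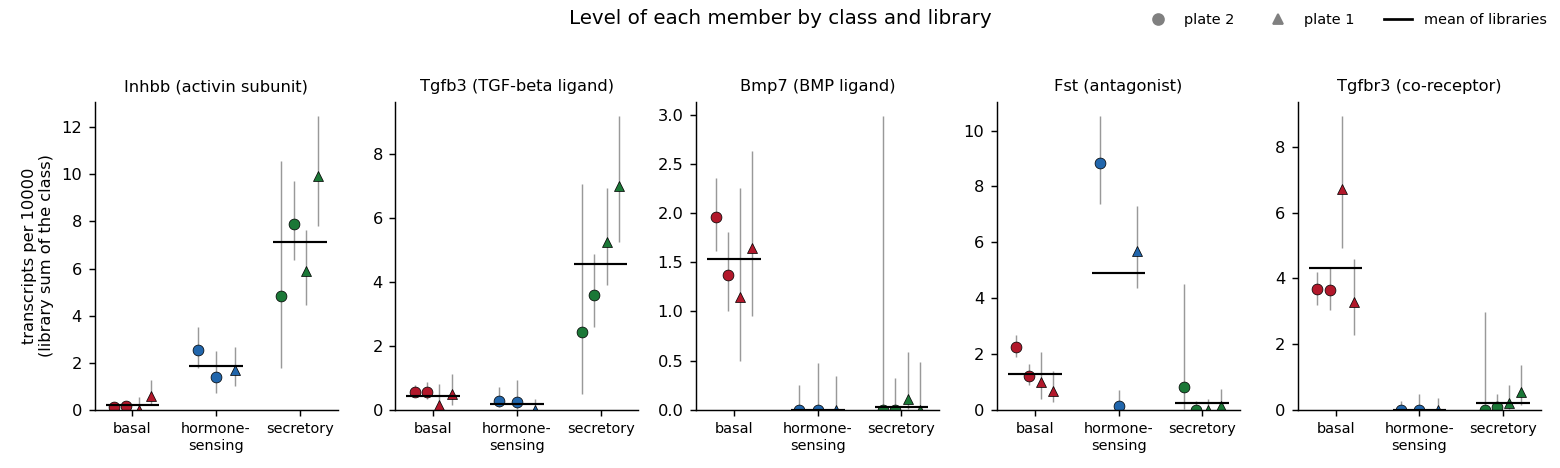
Level of each gene in transcripts per 10000, 1 point per library and class (circles plate 2, triangles plate 1), with exact 95% Poisson intervals as grey lines and the mean of libraries as a black bar. Inhbb and Tgfb3 stand highest in secretory libraries, Bmp7 and Tgfbr3 in basal libraries, and the hormone-sensing Fst values range from 0.128 to 8.84.

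In basal cells Bmp7 and Tgfbr3 were found together in 39 of 66 cells and neither in 8. Cells with both had a median of 22009 transcripts and cells with neither 2416.5. All 27 basal cells with Tgfb3 also held Tgfbr3. These cells too were deep, with a median of 22009 transcripts against 7653 in basal cells without Tgfb3. How far depth accounts for such shared detection was not tested.

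**Figure D2:**
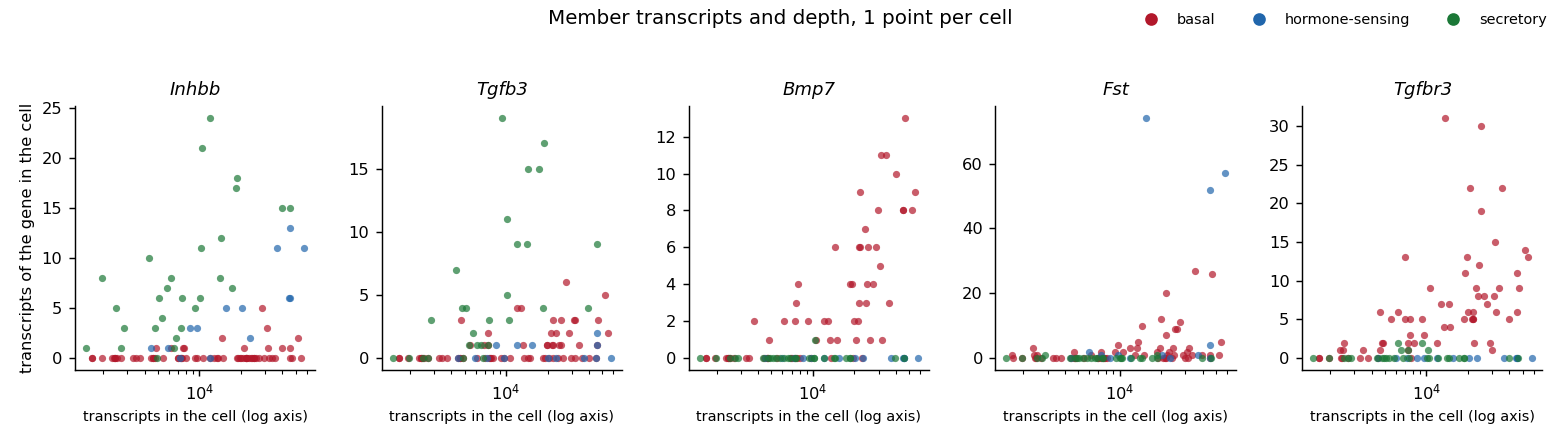
Transcripts of each gene in a cell against all transcripts in that cell (log axis), 1 point per cell, coloured by class. The basal points of Bmp7 and Tgfbr3 climb with depth, whereas 3 hormone-sensing cells with 74, 57 and 52 Fst transcripts stand far above other cells of the same depth.

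Plate was not used to choose the genes, so the difference between plates could be tested. In an edgeR quasi-likelihood fit with class as covariate, over 4 sums of plate 2 and 4 of plate 1 with 7 to 31 cells each, 0 of 4155 genes passed a Benjamini-Hochberg adjusted p under 0.05 (0% of genes), and 231 had an unadjusted p under 0.05. DESeq2 called 3 genes, none of them among the 5. The log2 change of plate 2 minus plate 1 was -0.65 ± 0.45 for Inhbb, -0.74 ± 0.58 for Tgfb3, 0.10 ± 0.53 for Bmp7, 1.06 ± 0.91 for Fst and -0.74 ± 0.44 for Tgfbr3 (SE; adjusted p from edgeR 0.930 for all but Bmp7, 0.994). P-values above the threshold do not show that the plates were alike. A fit in which class effects could differ between plates called 0 of 5031 genes, with 221 at an unadjusted p under 0.05.

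Of 139 genes listed for the pathway, 108 were measured, 103 of them other than the 5. The lists were chosen with earlier results of these data known. Basal minus luminal was tested on 4 basal and 4 luminal library sums of 7 to 31 cells. There 505 of 3420 genes (14.8%) passed, 8.07% higher and 6.7% lower in basal cells, and of 31 other pathway genes that passed the filter on low counts 5 were higher and 4 lower in basal cells, with a median log2 change of 0.44 beside -0.00012 over all genes tested. The count over all genes rose to 761 without plate 1 library 1 and to 848 without plate 1 library 2. Of the 5, Tgfb3 did not pass this filter. The 5 other genes called higher include Fstl1, Fbn1, Pcsk6 and Id4, with 1, 0, 4 and 0 luminal transcripts. These passed the filter only through the basal sums where they are high, so their p-values are given as description. Ctgf, a response gene with 447 basal and 0 luminal transcripts, was not tested, and it is named here after its values were seen. Hormone-sensing minus secretory was tested within the 3 libraries with at least 3 cells of both. There 297 of 2458 genes (12.1%) passed, 5.17% higher and 6.92% lower in hormone-sensing cells, and of 23 other pathway genes 3 were higher and 2 lower, with a median of -0.14 beside 0.11 over all genes. That count was 11 without plate 2 library 1, 120 without plate 1 library 3 and 140 without plate 2 library 3. Id2, Id3, Msx2 and Cyr61, called here, held 3, 4, 2 and 5 transcripts in the lower class. They too passed the filter only through the higher class.

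Among ligands, the genes other than the 5 were too low for any test. Among secreted antagonists, 1 of 3 tested genes was called. Fstl1, a follistatin-related matrix protein, gave 448 transcripts in basal and 1 in luminal sums, a ratio of 255.6 (interval 45.6 to 10116; edgeR adjusted p = 5.68e-06). Twsg1, a BMP-binding protein, was at 1.64 ± 0.674 of 10000 in basal and 0.874 ± 0.237 in luminal libraries (SD, n = 4 each) and did not pass (edgeR adjusted p = 0.0986). It passed without plate 1 library 2 and without cells led by other markers. Sostdc1, a secreted BMP and Wnt antagonist, gave 237 transcripts in basal cells and 0 in both luminal classes but was not tested, and it is named here after its values were seen. In secretory cells only Twsg1 and Crim1 of the antagonist list exceeded 10 transcripts, with 26 and 12.

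Among genes of latency and activation, 2 of 6 tested were higher and 1 lower in basal cells. Fbn1, the microfibril protein fibrillin-1 that anchors latent TGF-beta complexes, gave 145 transcripts in basal and 0 in luminal sums, at least 27.6-fold higher (edgeR adjusted p = 0.000152). Pcsk6, a convertase that cleaves ligand precursors, rose by 5.16 ± 0.64 on the log2 scale (SE; edgeR adjusted p = 8.78e-05). With a library left out this change ranged from 4.68 to 8.73, the highest without plate 2 library 3, and stayed past the threshold. Furin, the related convertase, fell by 1.08 ± 0.29 (SE; edgeR adjusted p = 0.0239), with 0.630 ± 0.0773 of 10000 in basal and 1.36 ± 0.190 in luminal libraries (SD, n = 4 each). The Furin call was lost without plate 2 library 2, 3 or 4 or plate 1 library 3 or 4, at adjusted p up to 0.0987, with no filter on low counts (0.120), and on plate 2 and plate 1 alone (0.120 and 0.400). None of 4 tested genes of this list was called between hormone-sensing and secretory cells.

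In each contrast 3 type I and II receptor genes were tested and none was called. They were Acvr1, Bmpr1a and Bmpr2 between basal and luminal sums, and Tgfbr2, Bmpr1a and Bmpr2 between hormone-sensing and secretory sums. Acvr1, Bmpr1a and Bmpr2 had log2 changes of 0.92 ± 0.52, 0.09 ± 0.34 and 0.90 ± 0.43 between basal and luminal sums (SE; edgeR adjusted p = 0.295, 0.910 and 0.209). Tgfbr1, the type I TGF-beta receptor, stood at 0.579 ± 0.216 in basal (SD, n = 4), 0.320 ± 0.219 in hormone-sensing (SD, n = 3) and 0.110 ± 0.219 of 10000 in secretory libraries (SD, n = 4). Tgfbr2, the type II receptor to which betaglycan presents ligand, stood at 0.416 ± 0.202, 1.10 ± 0.413 and 0.108 ± 0.0879 in the same order. Its log2 change of 2.88 ± 1.32 in hormone-sensing against secretory cells did not pass (SE; edgeR adjusted p = 0.159). The activin type II receptor Acvr2a gave 47 transcripts in basal, 5 in hormone-sensing and 3 in secretory cells. The other activin type II receptor, Acvr2b, gave 11, 4 and 8, or 0.0980, 0.118 and 0.269 of 10000, in the same order. Among co-receptors, Vasn, a TGF-beta trap, was the other gene tested and passed in neither contrast (edgeR adjusted p = 0.255 and 0.328). Secretory cells, which held most Tgfb3, gave 5 Tgfbr1, 4 Tgfbr2 and 7 Tgfbr3 transcripts in 296912.

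**Figure D3:**
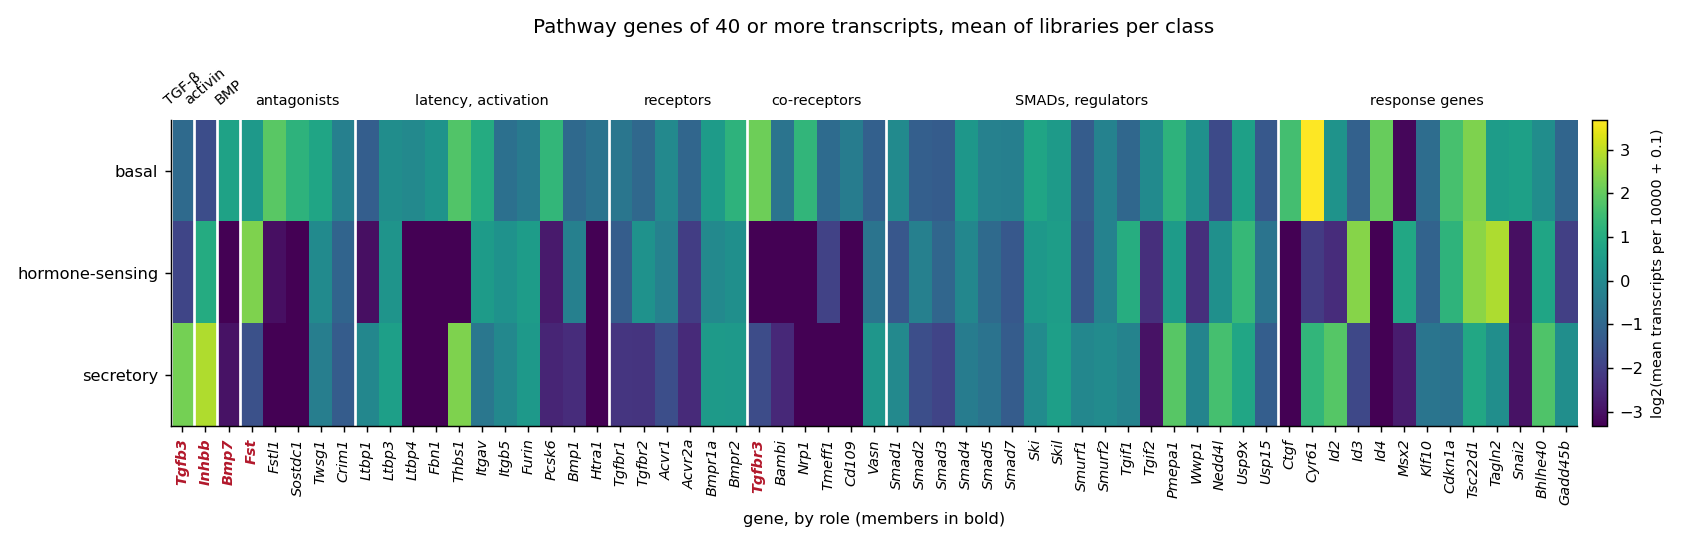
Mean level over libraries, as log2(transcripts per 10000 + 0.1), of pathway genes with 40 or more transcripts, grouped by role, in basal, hormone-sensing and secretory cells, with the 5 genes in bold. Secretory cells are dark for Tgfbr1 and Tgfbr2 (means 0.110 and 0.108 of 10000) where they are bright for Tgfb3 (4.58). They are also bright for Inhbb (7.14) and intermediate for the receptor gene Bmpr1a (1.31).

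Among SMADs and their regulators, 1 of 10 tested genes was called. Nedd4l, a ubiquitin ligase that targets SMADs, fell by 2.42 ± 0.48 on the log2 scale in basal cells (SE; edgeR adjusted p = 0.00349), to 0.196 ± 0.209 of 10000 in basal against 1.40 ± 0.202 in luminal libraries (SD, n = 4 each). Pmepa1, an inhibitor of TGF-beta signalling that TGF-beta itself induces, stood at 2.22 ± 0.258 in basal and 2.60 ± 1.03 in luminal libraries and did not pass (SD, n = 4 each; edgeR adjusted p = 0.699). Of 6 tested genes none was called between hormone-sensing and secretory cells. Pmepa1 came nearest, lower by 1.70 ± 0.63 on the log2 scale in hormone-sensing cells (SE; edgeR adjusted p = 0.0555). It stood at 1.34 ± 0.174 of 10000 in hormone-sensing and 3.94 ± 3.18 in secretory cells of the libraries with both (SD, n = 3 each). With a library left out its edgeR adjusted p ranged from 0.0820 to 0.912.

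Among response genes, 2 of 8 tested were higher and 2 lower in basal cells. Id4, an inhibitor of helix-loop-helix factors, gave 466 transcripts in basal and 0 in luminal sums, at least 88.6-fold higher (edgeR adjusted p = 1.7e-05). Cyr61, a matrix protein also induced by mechanical and growth signals, rose by 3.70 ± 0.49 on the log2 scale (SE; edgeR adjusted p = 0.000144). Id3, a BMP-induced relative of Id4, fell by 3.78 ± 0.99 and Tagln2, an actin-binding protein, by 1.47 ± 0.43 (SE; edgeR adjusted p = 0.0199 and 0.0339). The Id3 call was lost without plate 2 library 2 or 4 or plate 1 library 4, at adjusted p up to 0.116, with DESeq2 (0.177), with the library as block (0.510) and on plate 1 alone (0.812). The Tagln2 call was lost without any library but plate 1 library 1, at adjusted p up to 0.117, without cells led by other markers (0.0589), with the library as block (0.271) and on plate 1 alone (0.573). In the fit with the library as block, each basal sum was 1 cell.

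Between the luminal classes 5 of 8 tested response genes were called. In hormone-sensing cells Id3 rose by 4.30 ± 0.82, Msx2, a BMP-induced homeobox factor, by 3.74 ± 1.11, and Tagln2 by 2.53 ± 0.63 on the log2 scale (SE; edgeR adjusted p = 4.7e-06, 0.00863 and 0.00104). Id2 fell by 5.24 ± 0.83 and Cyr61 fell by 4.07 ± 0.91 (SE; edgeR adjusted p = 1.5e-08 and 0.000142). In level, Id3 averaged 5.17 ± 2.04 of 10000 in hormone-sensing and 0.177 ± 0.306 in secretory cells of these libraries, and Id2 0.0850 ± 0.0943 and 3.72 ± 0.662 (SD, n = 3 each). Without plate 2 library 1, whose secretory sum holds 12378 transcripts, the calls of Id2, Id3 and Tagln2 were lost, with edgeR adjusted p up to 0.0554, 0.141 and 0.175 over the left-out libraries. Leaving out a library moved the Id3 change to as low as 2.99 (plate 2 library 3 left out) and as high as 8.87 (plate 1 library 3 left out). Without plate 1 library 3 the calls of Msx2 (edgeR adjusted p = 0.113) and Tagln2 were lost. Msx2 and Cyr61 were tested in only 1 left-out fit each, having been filtered out of the others. In its fit Cyr61 stayed past the threshold (edgeR adjusted p = 0.00102). Tagln2 fell outside the rule for naming genes and is named after its values were seen.

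**Figure D4:**
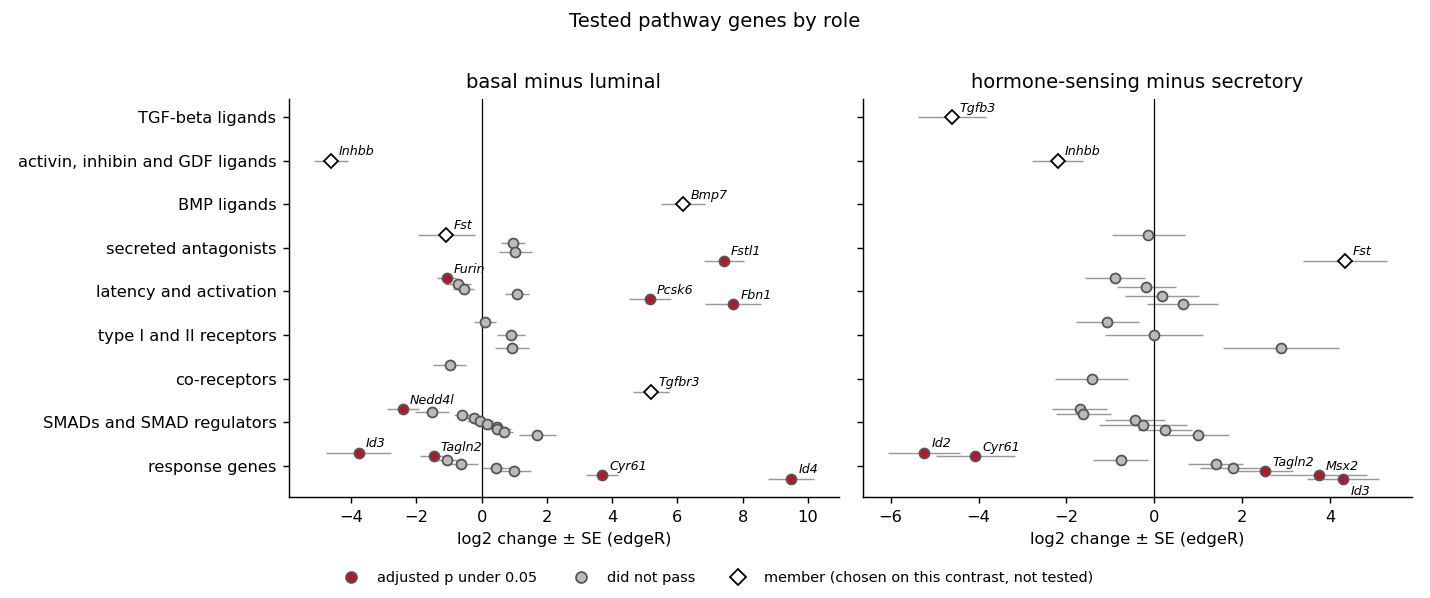
Log2 change ± SE from edgeR for each tested pathway gene by role, basal minus luminal on the left and hormone-sensing minus secretory on the right. Filled red points passed an adjusted p under 0.05, and open diamonds are the 5 genes, which were chosen on these contrasts. Fitted changes of genes with 0 transcripts on one side, such as Id4 and Fbn1, depend on the prior count.

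Over the 11 library sums of at least 3 cells, the genes most like each of the 5 in log2 CPM were found among 3530 candidates. For Inhbb they were Zfp395 (Pearson r = 0.98), Atp1b1 (r = 0.96) and Efcab4a (r = 0.95). For Tgfb3 they were BC006965 (r = 0.95), Ccdc129 (r = 0.93) and Tspan8 (r = 0.92), and for Fst Col8a1 (r = 0.94), Kdelr2 (r = 0.91) and Socs3 (r = 0.85). For Bmp7 they were Cxcl14, Igfbp4 and Ccnd2 (r = 0.996, 0.993 and 0.992), and for Tgfbr3 Lamb1, Chsy1 and Pdgfa (r = 0.98, 0.97 and 0.96). Among the 5 themselves, Bmp7 and Tgfbr3 reached r = 0.94 and Inhbb and Tgfb3 r = 0.67. The sums fall into 3 classes, share libraries and differ in depth, so these values describe the class pattern and carry no p. In single hormone-sensing cells, the 9 with Fst held 0 to 63 Col8a1 transcripts and the 5 without Fst held 0 to 4. Those with Fst were deeper, at a median of 20310 transcripts against 11956, and all 3 cells of plate 2 library 3 held 0 Col8a1. Col8a1 was named from sums that include these cells, and the part of depth and library was not tested. The 3 cells highest in Fst held 9, 25 and 29, and 2 cells with 4 and 1 Fst transcripts held 58 and 63.

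Wells of at least 500 but under 1500 transcripts were not used to choose the genes. Classed by the same marker rule, they gave 30 basal wells with 24764 transcripts and 24 luminal wells with 21740. Tgfbr3 gave 7 transcripts in basal wells, 2.83 of 10000 (interval 1.14 to 5.82), and 0 in luminal wells (exact upper limit 1.70), and these intervals overlap. Tgfb3 gave 0 in basal wells and 9 in luminal wells, 4.14 of 10000 (interval 1.89 to 7.86). Inhbb gave 3 in basal wells, 1.21 of 10000 (interval 0.250 to 3.54), and 9 in luminal wells, 4.14 of 10000 (interval 1.89 to 7.86), and these intervals overlap. Between the luminal classes, Inhbb stood at 6.36 of 10000 in hormone-sensing wells (interval 2.07 to 14.9) and 2.88 in secretory wells (interval 0.785 to 7.38). Tgfb3 stood at 3.82 in hormone-sensing wells (interval 0.787 to 11.2) and 4.32 in secretory wells (interval 1.59 to 9.41). These intervals overlap too. Inhbb was thus not higher in secretory wells, with 5 transcripts in hormone-sensing and 4 in secretory wells, unlike in the kept cells. Overlap of separate intervals is not a test of a difference, and none was run on these wells. Bmp7 gave 0 in both and Fst 0 in basal wells and 1 in luminal wells, too few to compare. The class of these wells is less sure, since the higher marker sum was under 3 in 17 of the 54 wells.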

How the data were processed

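Cells were sorted, lysed and processed by SORT-seq and read as 75 bp pairs, per the labels' protocols. The submitters' processing notes list BWA 0.6.2-r126 and the build mm10 without saying how they were used. The deposited table holds expected counts, estimated transcripts per gene and well: 518732 of 518737 values above 0 fell, within 1e-06, on the scale that corrects 256 random tags of 4 bases for collisions. What else the authors filtered is not given in the sources used here.

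Members and lists were chosen with earlier results of these data known. Expected counts were rounded, and 81 spike-in lines were left out of totals. Wells with at least 1500 transcripts and 500 genes were cells. For each library the transcripts of a class were added up, and edgeR 4.0.16 in R 4.3.3 compared these sums with TMM scaling, filterByExpr and its quasi-likelihood test, calling genes at a Benjamini-Hochberg adjusted p under 0.05 over all genes tested. DESeq2 1.42.0 was an alternative. Basal minus luminal needed 5 cells per sum. Hormone-sensing minus secretory needed 3 and used the library as block. The standard error is approximate. Ratios pool transcripts over cells, and a group at 0 was set at 3 transcripts over the group. Detection at 1500 transcripts is the hypergeometric expectation per cell. Named genes were the 5, up to 4 called and 2 other tested genes per pathway list and contrast, and the 3 most alike by Pearson correlation of log2 CPM (prior count 2). Scripts were tested on simulated data. Coordinates come from GENCODE M21 (GRCm38). A promoter sequence was matched for 1 of the 5 genes. The deposited table names wells by number and holds no cell barcodes, and no doublet caller was run. Of 108 classed cells, 6 held at least 10 transcripts of the lower marker sum.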

Additional observations from a re-analysis of the deposited data

Results flagged for a closer look

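In groups of 4 libraries, 10 member levels were checked for a library far from the others, and 3 stood out. The cutoff flags about 1 in 20 groups of normally distributed values, a rate that does not hold for groups of a few transcripts. A group in which only 1 library is above 0 is always flagged. Tgfbr3 in basal cells of plate 1 library 2 stood at 6.71 of 10000, and without cells led by other markers this library held 3.01, on 3 cells. Fst in secretory cells of plate 2 library 1 stood at 0.808, on 1 transcript in 12378. Bmp7 in secretory cells of plate 1 library 1 stood at 0.105, also on 1 transcript.

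Wells under 500 transcripts, which no comparison used, held member transcripts above the 3 that a count of 0 allows. The 579 wells, with 83246 transcripts together, gave 23 of Inhbb, 6 of Fst, 13 of Tgfb3 and 29 of Tgfbr3, and 3 of Bmp7. In libraries 2 and 4 of both plates, which hold most basal cells, Inhbb gave 3, Tgfb3 2, Tgfbr3 26, Fst 3 and Bmp7 1 transcripts in 43161. In libraries 1 and 3, which hold the luminal cells, Inhbb gave 20, Tgfb3 11, Tgfbr3 3, Fst 3 and Bmp7 2 in 40085. Per 10000, Tgfbr3 thus stood at 6.02 (interval 3.94 to 8.83) in wells of libraries 2 and 4 and at 0.748 (interval 0.154 to 2.19) in wells of libraries 1 and 3. The source of these transcripts was not tested. In the 6 unclassed cells Tgfbr3 gave 12 transcripts in 25276.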

How the results depend on the processing

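Member levels by class kept their place within the spread between libraries in 109 of 109 recomputed values (pooled, at least 3000 transcripts, a 2 times class margin, other-led cells left out, each library left out). Leaving out a library cannot move a mean by more than the SD between libraries. Those values therefore counted as kept by construction and do not show that a level is stable. Fst in hormone-sensing cells, at 4.88, ranged from 2.91 to 7.26 with a library left out. The number of genes called between basal and luminal sums, 505, moved to 1511 with no filter, 835 without other-led cells, 939 on plate 2 alone and 163 on plate 1 alone, and to 436 to 848 with a library left out. With the library as replicate block only 2 libraries and 34 calls were left. The basal side of each was 1 cell, of 7783 transcripts in plate 1 library 3 and of 2404 in plate 2 library 1. The cell of plate 1 library 3 was led by red blood cell markers. Between hormone-sensing and secretory sums, 297 calls became 42 at 3000 transcripts, 186 with at least 5 cells and no block, 231 with no replicate block, and 11 to 140 with a library left out. Between plates, 0 calls became 3 with DESeq2, 132 with no filter, 1 with the library number as replicate block, and 0 to 6 with a library left out. Same-numbered libraries hold the same class on both plates. Deviations were taken from the mean of the 2 sums of a class on a plate, so those 2 sums mirror each other. This leaves 2 distinct correlations between same-numbered libraries (-0.17 and -0.02), too few to show whether the numbers pair libraries. Same-numbered libraries were not treated as pairs.

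Of 197 recomputed member log2 changes, 6 reversed and 10 moved. In plate 2 minus plate 1 the reversed values were 0.74 for Tgfb3 in basal sums alone, -0.17 for Bmp7 without other-led cells, and, with a library left out, a range of -0.40 to 2.014 for Fst and -0.19 to 0.32 for Bmp7. Fst in basal minus luminal ranged from -1.54 to 0.087 with a library left out, positive without plate 2 library 1.

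Of 514 recomputed values of other named genes, 452 stayed on their side of the threshold, 30 weakened, 6 strengthened and 26 reversed, the last all of genes that did not pass. In basal minus luminal, reversed values were -0.51 for Itgav, -0.041 for Bmpr1a and -8.46 for Tsc22d1 with the library as block, -0.00082 without other-led cells and -0.12 on plate 1 alone for Bmpr1a, and 0.031 on plate 2 alone for Pmepa1. The values with the library as block rest on 1 basal cell per library. Bmpr1a ranged from -0.038 to 0.32 with a library left out. In hormone-sensing minus secretory, values reversed to 0.091 (DESeq2), 0.0036 (no filter) and 0.13 (total transcripts) for Twsg1, to 0.00068 (no filter) and 0.070 (total transcripts) for Furin, and to 0.092 (DESeq2), 0.21 (no filter), 0.22 (total transcripts) and 0.022 (distinct tags) for Bmpr2. Usp9x reversed to -0.15 at 3000 transcripts and -0.14 with at least 5 cells, and Bhlhe40 to 0.088 with at least 5 cells. With a library left out the ranges were -0.38 to 0.64 for Twsg1, -0.56 to 0.17 for Ltbp3, -0.32 to 0.30 for Furin, -0.13 to 0.95 for Usp9x and -1.58 to 0.032 for Bhlhe40. The causes were not tested. Depth limits the low genes: 3 transcripts were 0.0267 of 10000 in basal, 0.0889 in hormone-sensing and 0.101 in secretory cells, and the hormone-sensing sums rest on 3 to 7 cells.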
